A study of Mus musculus with 8 samples.

Results

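The 10 long noncoding RNAs described here are 8 snoRNA host genes (Gas5, Snhg1, Snhg3, Snhg5, Snhg6, Snhg8, Snhg12 and Zfas1) and the nuclear RNAs Malat1 and Neat1. They were taken from an RNA-Seq count table of 44396 loci, of which 20350 had enough counts to be tested, by asking for loci whose most frequent gene name was one of the 10. This rule found 8 of the 10. The loci of Snhg8 and Neat1 carried the gene's name in 1 of their 8 and 1 of their 5 name entries, behind other cDNA names, but lie at these genes' positions, and they are described alongside the others. Without them, 7 hosts and Malat1 remain.

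The cells were mouse embryonic stem cells (mESCs) of an Oct4-GFP line, grown on gelatin without feeder cells. Control cells (C) received 0.9% NaCl and morphine cells (M) received 10 µM morphine, an opioid agonist, both for 24 h. Each condition gave 2 RNA-Seq libraries and 2 ChIP-Seq libraries of trimethylated lysine 27 of histone H3 (H3K27me3), the mark of Polycomb-repressed chromatin, 8 libraries in all. The H3K27me3 libraries of a condition are described in the study's methods as biological replicates. For the RNA-Seq libraries the labels give replicate numbers without saying whether they came from separate cultures, so p-values measure the spread between these libraries, which may be technical. RNA-Seq depth ranged from 25081266 to 29531096 counts. Summed over 6 pluripotency genes (Pou5f1, Nanog, Sox2, Zfp42, Esrrb and Klf4) the level was 3513 to 3798 CPM (counts scaled to the normalized library total, per 1000000), and 0 of the 6 passed the test (Pou5f1 log2 fold change 0.23, adjusted p = 0.0525; Esrrb 0.02, adjusted p = 0.812), with 4 of them below 0, the lowest being Nanog (-0.12, adjusted p = 0.158), added here after its value was seen. Of 5 fibroblast markers, 4 were tested and 0 passed, with sums of 254.8 and 262.7 CPM in control and 285.5 and 280.1 CPM in morphine libraries, nearly all of it Vim (0.13, adjusted p = 0.133; Thy1 0.12, adjusted p = 0.621), while Col3a1 was at or near 0. Of 6 markers of differentiated lineages, 4 were tested and 0 passed, with sums of 18.4 to 21.6 CPM (Gata6 0.23, adjusted p = 0.288; Gata4 0.09, adjusted p = 0.757), and T and Foxa2 were near 0. The part of these small shifts in the results below was not tested.

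Small nucleolar RNAs (snoRNAs) are mostly cut out of the introns of host transcripts. Box C/D snoRNAs guide 2′-O-methylation and box H/ACA snoRNAs guide pseudouridylation, chiefly of ribosomal RNA. The spliced hosts often begin with the terminal oligopyrimidine tract known from ribosomal protein mRNAs, a sequence through which translation follows growth signalling, and many, with Gas5 as the classic case, are degraded by nonsense-mediated decay. Malat1 resides in nuclear speckles, where splicing factors gather, and Neat1 is the scaffold of paraspeckles.

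The snoRNAs show what these loci encode. RefSeq (GRCm38.p6) placed 29 snoRNAs in the 8 host loci, with 8 each in Gas5 and Snhg1, 4 in Snhg12, 3 in Zfas1, 2 each in Snhg3 and Snhg5, and 1 each in Snhg6 and Snhg8. TGATGA, the core of box C, stood on the sense strand within 15 bases of the 5′ end in 16 of them, CTGA, box D, within 15 bases of the 3′ end in 22, and both in 15. A box C/D snoRNA of Gas5, that of Snhg6, and an H/ACA snoRNA of Snhg12 are printed 5′ to 3′ as examples of both classes, with boxes C and D, or the ACA near the 3′ end, in capitals. They lie at chr1:161038092-161038156 (+), chr1:9942470-9942543 (−) and chr4:132309465-132309600 (+).
Snord47: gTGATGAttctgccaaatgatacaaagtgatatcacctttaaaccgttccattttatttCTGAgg
Snord87: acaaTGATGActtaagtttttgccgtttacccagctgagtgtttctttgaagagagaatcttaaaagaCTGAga
Snora16a: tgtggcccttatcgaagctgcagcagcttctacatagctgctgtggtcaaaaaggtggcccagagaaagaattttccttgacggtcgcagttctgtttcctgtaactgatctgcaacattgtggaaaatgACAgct

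Of the 29 snoRNAs, 25 lay inside intervals counted for the host, so the assembled loci take in sequence that gives rise to snoRNAs. Whether it was counted from unspliced host RNA or from separate snoRNA transcripts cannot be told apart. The counted bases made up 100% of the span of Snhg1 and Snhg8, 96.4% of Gas5, 86.4% of Snhg3, 85.6% of Snhg6, 72.7% of Snhg5, 54.8% of Snhg12 and 36.0% of Zfas1. A count for Gas5 or Snhg1 is therefore one over nearly the whole span, and spliced and unspliced RNA cannot be told apart in it.

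The 5′ ends of the loci are shown because many hosts carry a pyrimidine tract at the start of the transcript. Each run holds 40 bases before the assembled 5′ end and 25 bases from it onward, in mm10, printed along the gene's own strand. Capitals mark a C followed by at least 4 pyrimidines and starting within 5 bases of the assembled start, and a TATA 40 to 20 bases upstream. The runs lie at chr1:161035126-161035190 (Gas5, +), chr19:8723447-8723511 (Snhg1, +), chr1:9944094-9944158 (Snhg6, −), chr3:123508312-123508376 (Snhg8, −), chr4:132308638-132308702 (Snhg12, +), chr2:167063029-167063093 (Zfas1, +) and chr19:5845456-5845520 (Neat1, −).
Gas5: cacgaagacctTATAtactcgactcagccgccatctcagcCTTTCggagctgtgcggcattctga
Snhg1: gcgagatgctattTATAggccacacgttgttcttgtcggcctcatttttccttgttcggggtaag
Snhg6: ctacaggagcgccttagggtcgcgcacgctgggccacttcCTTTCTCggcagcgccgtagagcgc
Snhg8: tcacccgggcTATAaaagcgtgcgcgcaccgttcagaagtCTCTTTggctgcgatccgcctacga
Snhg12: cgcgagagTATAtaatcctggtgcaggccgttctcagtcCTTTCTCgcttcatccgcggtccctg
Zfas1: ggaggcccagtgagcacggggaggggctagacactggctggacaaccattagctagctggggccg
Neat1: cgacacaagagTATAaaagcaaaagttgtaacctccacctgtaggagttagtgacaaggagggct

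A tract of this kind was found in 5 of the 8 hosts (Gas5, Snhg3, Snhg6, Snhg8 and Snhg12), or 62.5%, against 18.3% of 32851 RefSeq promoters searched on the sense strand by the same letters around the RefSeq start. A TATA in the same upstream window was found in 5 of 8 (Gas5, Snhg1, Snhg5, Snhg8 and Snhg12), against 5.49% of those promoters. Both motifs were chosen after the sequences were seen, and the matches are a description. In Snhg1, Snhg5 and Zfas1 these letters were not in the window around the assembled start, which may not be the start in use.

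All 8 hosts had mean CPM below control after morphine, from 9.03% lower in Snhg6 to 20.8% lower in Gas5. Their log2 fold changes (morphine over control) ran from -0.34 to -0.13 with a median of -0.20, while the median over all 20350 tested loci was 0.0013 and 49.7% of all loci lay below 0. In 7 of the 8, both morphine libraries were below both control libraries, as was the case for 26.8% of all tested loci. Gas5 and Snhg1 passed the test (edgeR's quasi-likelihood test, adjusted p at most 0.05), and 0 of the 8 rose. Of all tested loci 1.52% were called, with 0.904% lower and 0.614% higher. At an unadjusted p of 0.05, 6 of 8 hosts were lower, against 10.8% of all loci. In bulk RNA, fewer cells carrying a transcript and less of it per cell cannot be told apart.

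**Figure D1:**
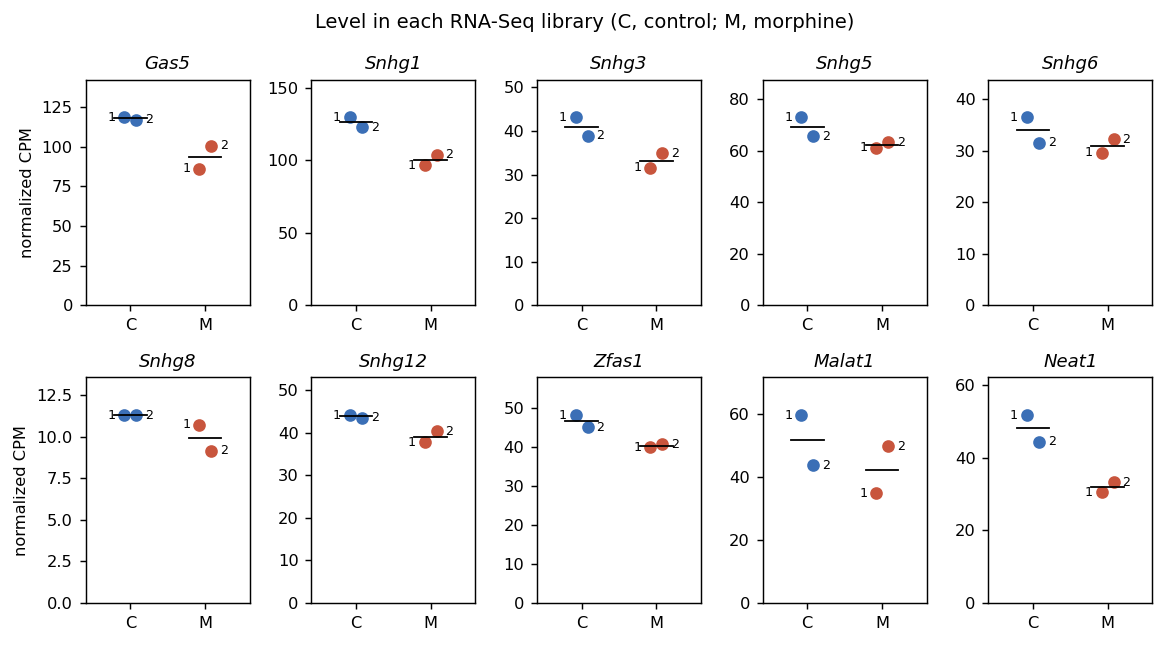
Normalized CPM (vertical axes, each starting at 0) of the 10 RNAs in the control (C, blue) and morphine (M, red) RNA-Seq libraries, numbered 1 and 2 by replicate, with bars at the mean of the 2 libraries. The colours overlap in height in the panels of Snhg6 and Malat1 and are separate in the other 8.

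Gas5, named for its accumulation in growth-arrested cells, stood at 118.59 and 117.10 CPM in control and 86.07 and 100.64 CPM in morphine libraries, from 3258, 3447, 2177 and 2833 counts. The morphine libraries were both lower, and their distance from each other was wider than that of the controls (SD 10.3 against 1.06 CPM, n = 2 each). Gas5 fell by 0.34 on the log2 scale (SE 0.068, adjusted p = 0.0414, edgeR's quasi-likelihood test), which is 20.8% of its control mean. The locus spans chr1:161035166-161038537 on the + strand, with 3250 counted bases.

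Snhg1, which hosts a cluster of box C/D snoRNAs, stood at 129.66 and 122.87 CPM in control and 96.66 and 103.73 CPM in morphine libraries, from 3562, 3617, 2445 and 2920 counts. The groups were apart by more than either one's spread (126 ± 4.80 and 100.2 ± 4.996 CPM, SD, n = 2). Snhg1 fell by 0.33 on the log2 scale (SE 0.056, adjusted p = 0.0213, edgeR's quasi-likelihood test), or 20.6%. It lies at chr19:8723487-8726442 on the + strand.

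The other hosts did not pass the test. Snhg3, host of the H/ACA snoRNAs Snora73a and Snora73b that act in pre-ribosomal RNA processing, stood at 43.14 and 38.86 CPM in control and 31.51 and 34.85 CPM in morphine libraries. Its groups did not overlap, and its log2 fold change was -0.30 (SE 0.075, adjusted p = 0.0623), closest to the threshold among the hosts that missed it. Snhg3 passed with other tests or settings, among them the exact test (adjusted p = 0.0216), the likelihood ratio test (adjusted p = 0.0214), no count filter (adjusted p = 0.00175) and the length trend removed (adjusted p = 0.0416), and over all 14 alternatives that gave one its adjusted p ranged from 0.00159 to 0.472, with 8 calls. Snhg3 (chr4:132351933-132353686, −) and Snhg12 (chr4:132308678-132311024, +) are separate loci of chromosome 4.

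Zfas1, which hosts Snord12 and starts head to head with Znfx1, stood at 48.16 and 45.04 CPM in control and 39.85 and 40.64 CPM in morphine libraries (chr2:167063069-167065862, +). Its log2 fold change was -0.21 (SE 0.062, adjusted p = 0.0926). Snhg12, with H/ACA and box C/D snoRNAs in 1 locus, stood at 44.12 and 43.48 CPM in control and 37.68 and 40.28 CPM in morphine libraries, with a log2 fold change of -0.17 (SE 0.063, adjusted p = 0.163). Both genes had separate groups.

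Snhg5 (chr9:88521052-88522897, −) stood at 72.95 and 65.53 CPM in control and 61.20 and 63.27 CPM in morphine libraries, and its log2 fold change was -0.15 (SE 0.063, adjusted p = 0.201). Snhg8, host of Snora24 (chr3:123507552-123508336, −), had the fewest counts of the 10, from 258 to 333 per library, and stood at 11.28 and 11.31 CPM in control and 10.71 and 9.17 CPM in morphine libraries (log2 fold change -0.19, SE 0.10, adjusted p = 0.332). In Snhg5 and Snhg8 the groups were separate but the gap was narrower than the spread of 1 group. Snhg6, host of Snord87 (chr1:9941959-9944118, −), was the host whose groups overlapped, with 36.47 and 31.49 CPM in control and 29.57 and 32.26 CPM in morphine libraries (log2 fold change -0.13, SE 0.081, adjusted p = 0.379).

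These 3 small differences moved when 1 library was left out, while none was called. Snhg6 was at -0.03 without control replicate 1, -0.07 without morphine replicate 1 and -0.23 without control replicate 2. Snhg5 was at -0.08 without control replicate 1. Snhg8 was at -0.08 without morphine replicate 2 and -0.30 without morphine replicate 1.

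**Figure D2:**
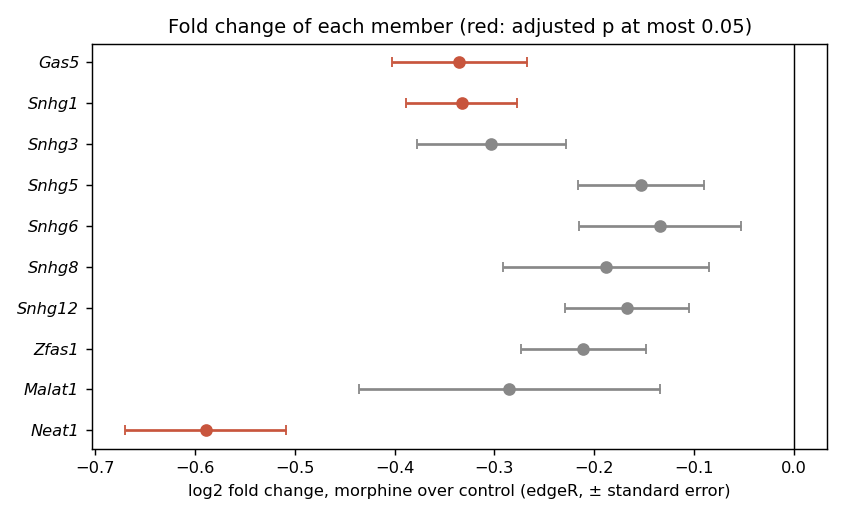
Log2 fold change (morphine over control, horizontal axis) of each of the 10 RNAs from edgeR's quasi-likelihood fit, with bars of 1 standard error and red where the adjusted p was at most 0.05. All 10 points lie left of 0, from -0.59 for Neat1 to -0.13 for Snhg6.

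Whether the hosts moved together can be read from their sums and from the order of the libraries. The summed level of the 8 hosts was 504.4 and 475.7 CPM in control and 393.3 and 424.8 CPM in morphine libraries, 16.5% lower. With Gas5 and Snhg1 left out, the sum was 256.1 and 235.7 CPM against 210.5 and 220.5 CPM, 12.4% lower, so that the difference was not carried by the most counted pair alone. Morphine replicate 1 was below morphine replicate 2 in 7 of 8 hosts, against 51.2% of all tested loci, and control replicate 1 was above control replicate 2 in 7 of 8, against 49.8%. The complete order of control 1, control 2, morphine 2, morphine 1 from high to low was seen in 6 of 8 hosts and in 12.7% of all loci. Only loci with both morphine libraries below both controls, 26.8% of all tested loci, can show this order. Genes outside the 8 hosts, such as Tug1 and Eif4a2, showed it too. The hosts therefore also shared differences between libraries of 1 condition, whose part in the difference between conditions was not tested.

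The calls were not kept when morphine replicate 1 was left out, which removed most calls among all loci as well. Without it, 0 of the 10 RNAs passed, with Gas5 at -0.23 (adjusted p = 0.387), Snhg1 at -0.28 (adjusted p = 0.27) and Neat1 at -0.53 (adjusted p = 0.146), while 0.0613% of all tested loci were called. The host median without it was -0.21. Base composition differed as well, with a median GC content of 45.3% in the host loci and 49.7% in all tested loci, and its part in the fold changes was not tested. When a trend of the counts on length and GC content was removed, the host median was -0.17, and Gas5 (-0.20, adjusted p = 0.110) and Snhg1 (-0.19, adjusted p = 0.0697) no longer passed, while 0.452% of all loci did.

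Per counted length, the hosts were ordered differently from their counts. Mean control levels in normalized counts per counted length (RPKM) were 51.6 for Snhg5, 46.3 for Zfas1, 42.7 for Snhg1, 36.3 for Gas5, 34.0 for Snhg12, 27.04 for Snhg3, 18.4 for Snhg6 and 14.4 for Snhg8. Malat1 and Neat1, often described as abundant, were the lowest of the 10 at 7.42 and 2.32 RPKM, over 6982 and 20773 counted bases. In CPM their control means were 51.8 and 48.1. These were below those of Snhg1, Gas5 and Snhg5 and above those of Zfas1, Snhg12, Snhg3, Snhg6 and Snhg8. The libraries were made from poly(A) RNA, so the levels of Malat1 and Neat1 cover what that selection retained. Each neighbouring pair in the RPKM order had control libraries that did not overlap. The gap was small for Snhg5 and Zfas1 (lowest and highest library, 48.8 and 47.8 RPKM) and for Zfas1 and Snhg1 (44.7 and 43.9 RPKM). In morphine libraries the means were lower throughout, from 46.4 RPKM for Snhg5 to 1.54 RPKM for Neat1. Lengths and counts both include snoRNA-bearing stretches. The level given for a locus such as Gas5 or Snhg1 is therefore not that of its spliced exons alone.

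Neat1 had the largest change of the 10. It stood at 51.80 and 44.40 CPM in control and 30.52 and 33.32 CPM in morphine libraries, from 1423, 1307, 772 and 938 counts over 20773 bases (chr19:5824708-5845480, −). The libraries were made from poly(A) RNA, so these counts cover what that selection retained of Neat1. The groups were well apart (48.1 ± 5.23 and 31.9 ± 1.98 CPM, SD, n = 2). Neat1 fell by 0.59 on the log2 scale (SE 0.080, adjusted p = 0.00993, edgeR's quasi-likelihood test), or 33.6%, and was the member that also passed at an adjusted p of 0.01, as did 0.0442% of all loci in the lower direction. With length and GC trends removed it remained called at -0.48 (adjusted p = 0.0111). A locus on the other strand named AK181808, chosen because its 1026 counted bases lie inside Neat1, stood at 16.2, 15.6, 10.2 and 11.5 CPM (log2 fold change -0.55, adjusted p = 0.022), and whether strand was used in counting is not given in the sources used here, so reads of this pair cannot be told apart.

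Malat1 (chr19:5795690-5802671, −) differed from Neat1 in its spread. It stood at 59.81 and 43.79 CPM in control and 34.83 and 49.84 CPM in morphine libraries, so that the groups overlapped. Its log2 fold change was -0.29 (SE 0.15, adjusted p = 0.313), and it depended on single libraries, with -0.05 without control replicate 1 or without morphine replicate 1, -0.49 without control replicate 2 and -0.57 without morphine replicate 2. Of 15 alternatives, 3 called Malat1. Among them were edgeR's quasi-likelihood test without a count filter (adjusted p = 0.00597) and with the replicate number as a block (adjusted p = 0.0116). Mature Malat1 lacks a poly(A) tail, and the libraries were made from poly(A) RNA, so these counts cover what that selection retained.

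**Figure D3:**
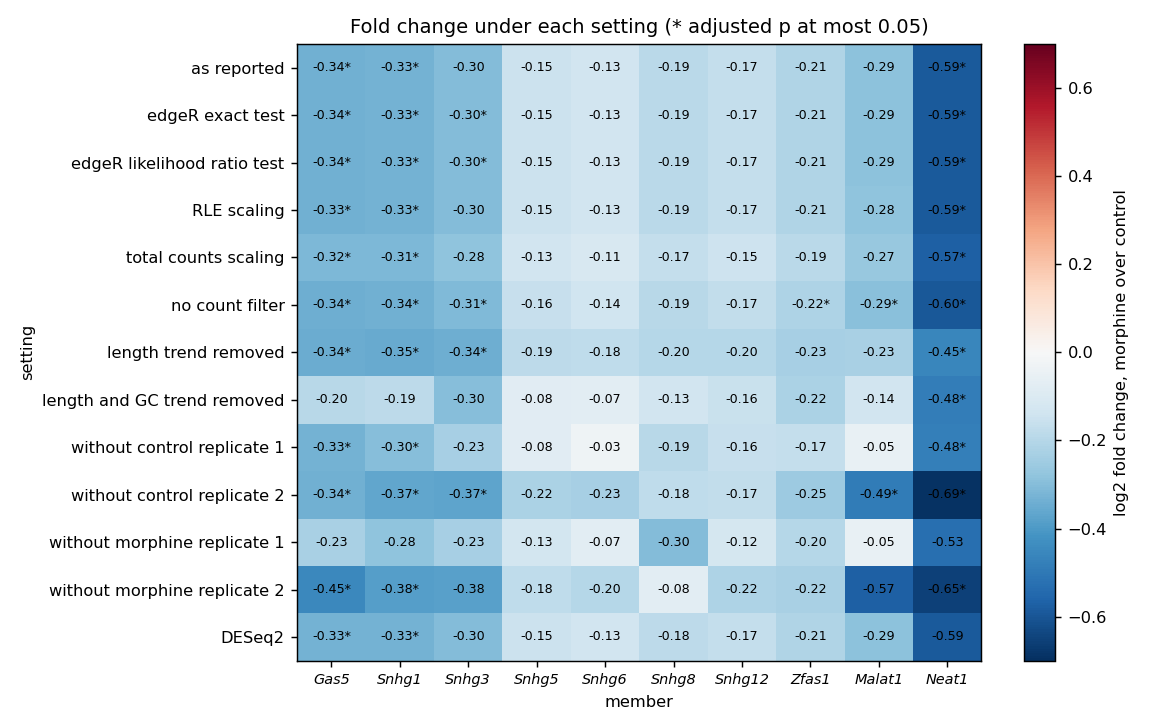
Log2 fold change (morphine over control, colour and number) of each of the 10 RNAs (columns) as reported and under other tests, scalings, filters, trends and left-out libraries (rows), with an asterisk where the adjusted p was at most 0.05. Every cell is below 0, the row without morphine replicate 1 has 0 asterisks, and DESeq2 gave 6 of the 10 no adjusted p, Neat1 included.

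The related lists of host, protein and other long noncoding RNA genes had medians between -0.11 and 0.070. The list of 12 further snoRNA host long noncoding RNAs was not complete. Dancr, which was called lower, and Rian are also described as snoRNA hosts but were counted below among other long noncoding RNAs. Of the 12 listed, 10 were found and 8 tested, with a median log2 fold change of 0.0013 and 0 called in either direction. The most abundant of them were Snhg17 (54.2, 54.7, 57.8 and 56.1 CPM in control 1, control 2, morphine 1 and morphine 2; log2 fold change 0.06, adjusted p = 0.573) and Snhg11 (-0.06, adjusted p = 0.6). Among 23 protein-coding snoRNA hosts, which are largely ribosomal protein and translation factor genes, the median was 0.0048 with 0 higher and 1 lower. That gene was Eif4a2, an RNA helicase of the translation initiation factor family, at 382, 382, 308 and 334 CPM, which fell by 0.25 on the log2 scale (SE 0.048, adjusted p = 0.0378). Eef2, the translocation factor of the elongating ribosome (0.06, adjusted p = 0.38), and Rack1, a ribosome-bound scaffold (0.11, adjusted p = 0.122), had the highest means over the 4 libraries. Ncl, the nucleolar protein nucleolin, whose control mean was above that of Rack1, is added after its value was seen (3719, 3519, 3222 and 3295 CPM; log2 fold change -0.15, adjusted p = 0.0723).

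Cytosolic ribosomal protein genes, whose mRNAs carry the same 5′ tract, had a median log2 fold change of 0.070 over 77 tested of 79 listed, with 57 above 0, 1 called higher and 1 lower. These were Rps23 (4.55, adjusted p = 0.00993) and Rpl30 (-1.08), at 2.48 and 3.43 CPM and at 18.7 and 17.8 CPM in control libraries, both in families with many near-identical copies, so their values are uncertain. Among 8 proteins of the snoRNA particles the median was -0.010, with 1 called higher and 0 lower. Nhp2, a core protein of H/ACA particles, stood at 318, 335, 396 and 374 CPM and rose by 0.24 on the log2 scale (SE 0.048, adjusted p = 0.0419). Nop58, of box C/D particles (-0.10, adjusted p = 0.247), and Dkc1, the pseudouridine synthase (0.05, adjusted p = 0.593), did not pass.

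For 10 factors of nonsense-mediated decay the median was -0.028 with 7 below 0 and 0 called in either direction, among them Smg5 (0.13, adjusted p = 0.145), which acts in the decay step. The 6 paraspeckle proteins had a median of -0.11 with 0 called, including Hnrnpk (-0.13, adjusted p = 0.128) and Sfpq (-0.09, adjusted p = 0.252), RNA-binding proteins that bind Neat1. The 6 speckle proteins had a median of -0.065 with 0 higher and 1 lower, the splicing factor Srsf1, which stood at 542, 506, 442 and 459 CPM and fell by 0.22 on the log2 scale (SE 0.047, adjusted p = 0.0476). Srrm2, a scaffold of speckles (-0.07, adjusted p = 0.371), and the splicing factor Srsf2 (0.10, adjusted p = 0.261) had the highest means over the 4 libraries, although Srsf1 was above Srsf2 in control libraries. Among 17 other long noncoding RNAs the median was 0.037, with 1 called higher and 2 lower. Dancr stood at 18.6, 19.2, 13.9 and 13.2 CPM (-0.48, adjusted p = 0.0212), Tug1 at 138, 125, 101 and 113 CPM (-0.30, adjusted p = 0.0496), and Mirg, of the imprinted Dlk1-Dio3 region, at 22.6, 24.2, 31.4 and 28.9 CPM (0.36, adjusted p = 0.0423).

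**Figure D4:**
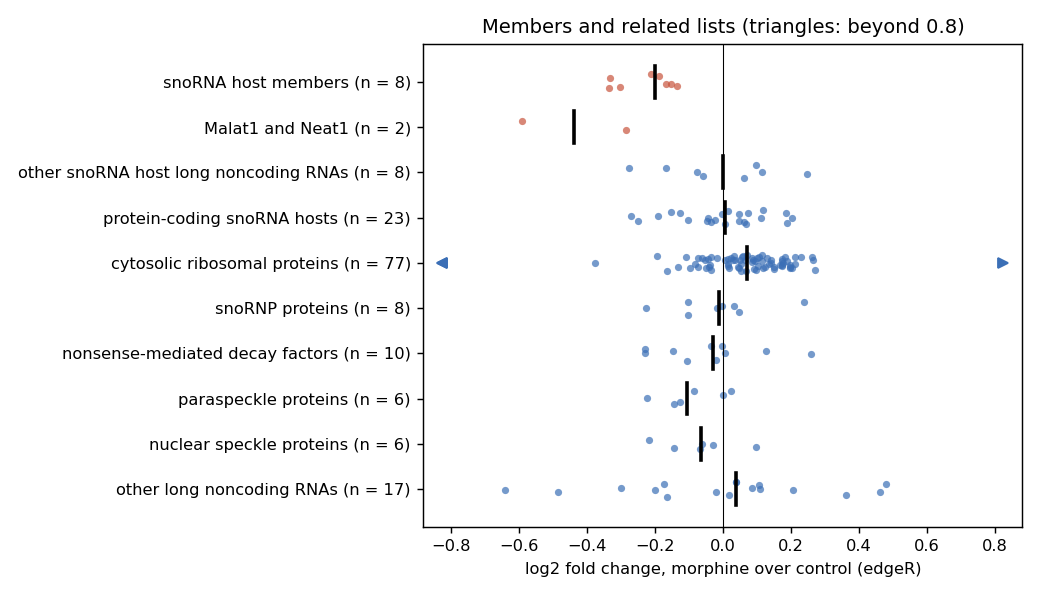
Log2 fold changes (morphine over control, horizontal axis) of the hosts and of Malat1 and Neat1 (red) and of related gene lists (blue, rows, with the number tested), with black bars at the median and triangles for values past 0.8 on either side. The host points all lie left of 0, whereas the further snoRNA host and ribosomal protein lists spread on both sides.

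Loci named for a snoRNA itself were also counted, with the list made after values had been seen. Of 67 such loci 34 were tested, with a median log2 fold change of -0.39, and 0 were called in either direction. Their median length was 90 bases, and some had few counts, such as Snora75 with 15, 15, 10 and 11. At an unadjusted p of 0.05 (edgeR's quasi-likelihood test), 8 were lower and 0 higher, against 2200 and 1974 of all 20350 tested loci. Both morphine libraries were below both controls in 20 and above both in 3, against 26.8% and 26% of all tested loci. Snora16a, in an intron of Snhg12 outside its counted intervals, had 106, 104, 61 and 81 counts (3.86, 3.53, 2.41 and 2.88 CPM; log2 fold change -0.48, adjusted p = 0.157). Mature snoRNAs have no poly(A) tail, so such counts come from what poly(A) selection retained.

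Genes starting beside a host on the other strand, chosen for their position, had values of their own. Slc3a2, an amino acid transporter subunit that starts 118 bases from Snhg1, stood at 373.8, 388.2, 413.2 and 398.1 CPM (log2 fold change 0.09, adjusted p = 0.278). Znfx1, which starts 54 bases from Zfas1, had a log2 fold change of 0.15 (adjusted p = 0.240), and Zbtb37, 318 bases from Gas5, one of -0.22 (adjusted p = 0.374). None of the 3 passed, and the values lay above 0 beside Snhg1 and Zfas1 and below 0 beside Gas5.

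In the H3K27me3 peak lists, 0 of the 10 RNAs had a peak within 1 kb of the start in either control library, and 2 had one in each morphine library. Malat1 had one in both, at chr19:5799162-5802352 in morphine replicate 1 (score 152.63), from 319 to 3509 bases downstream of the start, and at chr19:5799131-5802266 in replicate 2 (score 204.25), from 405 to 3540 bases downstream. Both lie within the body of the gene. Snhg1 had a peak in morphine replicate 1 alone (chr19:8723488-8724580, score 60.79) and Zfas1 in replicate 2 alone, with peaks at chr2:167060388-167062453 (score 57.59) and chr2:167063058-167064646 (score 54.67).

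The score is -10 times the log10 of the p-value of the peak call, and the lowest deposited score was 50, so the Snhg1 and Zfas1 peaks were just past the limit and the Malat1 peaks were not. Of 32812 RefSeq starts, the share with a peak within 1 kb was 11.8% and 12.5% for control and 12.1% and 12.8% for morphine, and 0.817% had one in both morphine libraries and neither control, as Malat1 did. The libraries held 10305, 13778, 8681 and 12282 peaks. A peak list holds no read counts, so a missing peak is not a missing mark, and with 2 libraries against 2 an exact permutation test cannot give a two-sided p below 0.33. Of the 3 RNAs that passed the test in the RNA-Seq libraries, Snhg1 had its peak in 1 morphine library and Gas5 and Neat1 had 0 peaks within 1 kb in all 4. Malat1 and Zfas1, which had peaks, did not pass that test.

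**Figure D5:**
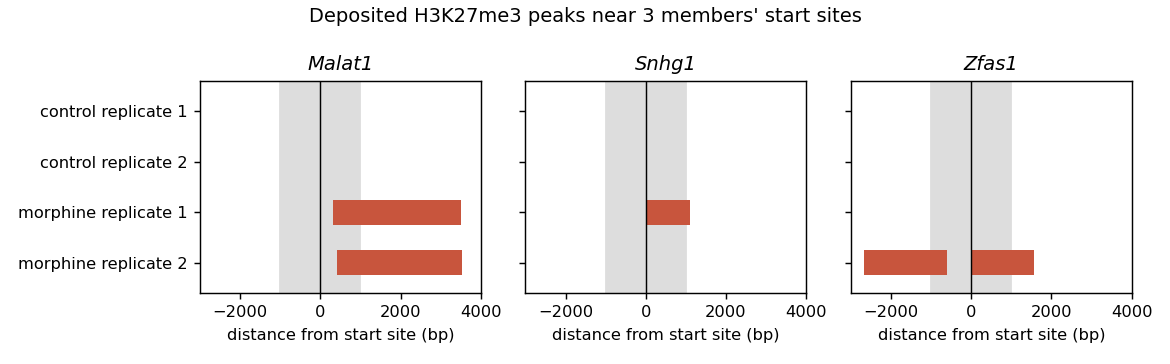
H3K27me3 peaks (bars) along the distance from the start site in bases (horizontal axis, positive downstream) in the 4 ChIP-Seq libraries (rows) for Malat1, Snhg1 and Zfas1, with the 1 kb window on both sides shaded. The control rows hold no bar in the 3 panels, and only Malat1 has a bar in both morphine rows.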

How the data were processed

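RNA-Seq was made from poly(A) RNA with a stranded kit, with 2 libraries per condition. The submitters' processing notes name Trim Galore 0.6.2, HISAT2 2.1.0, StringTie 1.3.6, featureCounts 1.6.4 and Bowtie2 2.3.5.1, with mm10. The deposited table holds the authors' raw counts per assembled locus and each locus's length in bases as another column. Strand and multi-mapping settings of the counting are not given in the sources used here, so loci with near-identical copies or antisense partners are uncertain. Each deposited peak list gives the authors' peaks per ChIP-Seq library with a score. Peak starts were read as counted from 0 and written from 1.

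Counts per library totalled 27820199 and 29531096 (control) and 25081266 and 28052049 (morphine). They were filtered (filterByExpr), scaled (TMM) and tested with edgeR 4.0.16 (quasi-likelihood, R 4.3.3), with Benjamini-Hochberg adjustment over 20350 loci and calls at 0.05. Loci without a gene name held 2.04% of counts. CPM and RPKM used the TMM-scaled totals. Where a symbol named several loci, the one with the most counts was used.

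The 10 RNAs and the gene lists were chosen with earlier results of these data known. All 10 are named, and of each other list up to 4 genes that passed or, where fewer than 2 did, also the 2 most abundant. A gene that this rule would name is not reported here. Alternatives were other edgeR tests, DESeq2 1.42.0, other scaling, no filter, length and GC trends, a replicate block, a stricter threshold and leaving out each library. Sequences and promoters are from RefSeq (GRCm38.p6) and the mm10 genome.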

Additional observations from a re-analysis of the deposited data

How the results depend on the processing

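The fitted log2 fold changes of the 10 RNAs were below 0 in all 150 values given by the 15 alternatives, and of the 144 with an adjusted p, 127 kept their side of the threshold, 5 lost the call and 12 gained it. Against 3 calls as reported, 6 RNAs were called without a count filter, 1 with length and GC trends removed, 1 at an adjusted p of 0.01 and 0 to 5 when 1 library was left out, with 0 without morphine replicate 1 and 5 without control replicate 2. DESeq2 called 2, and gave 6 of the 10 no adjusted p. The share of tested loci called was 1.52% as reported, 5.44% without a filter (1657 of 30482), 3.88% with the exact test (790) and 4.13% with the likelihood ratio test (840), which both called 4 of the RNAs, 0.452% with length and GC trends removed (92), 0.0613% without morphine replicate 1 (13), 7.67% without control replicate 2 (1619) and 13.2% with DESeq2 (669 of the 5070 with an adjusted p). With the replicate number as a block, 5 RNAs and 5.54% of loci (1128) were called. The labels do not say that the numbers pair libraries, and the correlation of same-numbered libraries' deviations was 0.026 over 20350 loci in 2 pairs. The block with the length trend removed, or with length and GC trends removed, called 4 in each case, with 4.48% and 1.64% of all loci called. The block with both trends, and the count limited to loci by most frequent name, which gave 2 calls, were chosen after seeing the data. The host median ranged from -0.24 to -0.17, and from -0.24 to -0.18 when 1 library was left out. With a peak score of at least 100, 1 RNA had a peak in each morphine library in place of 2. Where 1 library was left out, the lone library of its condition was assumed to vary like the others. The cause of these differences was not tested. With 2 libraries a condition, a missed threshold does not show that a level stayed the same.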
